A study of Mus musculus with 4 samples.

Results

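The genes described here mark B lymphocytes, and they were followed in RNA of sorted liver macrophages. They are Cd79a, Cd79b, Ms4a1, Pax5, Ebf1 and Mzb1, chosen by name. All 6 were found among 23337 gene names, 5 under these symbols and Mzb1 under its older symbol 2010001M09Rik, which RefSeq lists as a synonym. The libraries hold total RNA of Kupffer cells, the macrophages that live in liver sinusoids. They were sorted as YFP+ (2 libraries) or YFP- (2 libraries) from male and female Lyz2cre-RosaYFP mice aged 6 to 8 weeks. The lysozyme gene Lyz2, active in myeloid cells, drives Cre, and Cre turns on a yellow fluorescent protein (YFP) placed at the Rosa locus. Both YFP groups are described as coming from this mouse line and were separated by fluorescence. The label field that holds YFP+ or YFP- is named genotype. Levels of macrophage markers differ between the groups too, as given below. In each group the title of 1 library starts with M and that of the other with FM. The labels do not explain these starts. Nothing in them ties a library to its own animals, and p-values then measure a spread that may be technical.

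B cells recognise antigen with a surface immunoglobulin that cannot signal by itself. CD79a and CD79b form the signalling pair that carries it to the membrane and recruits kinases through their cytoplasmic tails. EBF1 and PAX5 are the transcription factors that set up and hold B cell identity, and Cd79a is a textbook target of both. Ms4a1 encodes CD20, a membrane protein of mature B cells, and Mzb1 encodes an endoplasmic reticulum protein that helps immunoglobulin assembly. Expression outside the B lineage is also known: Ebf1 is used by adipocytes, pericytes and other stromal cells, and Mzb1 by plasmacytoid dendritic cells.

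Cd79a lies on chromosome 7 (24897511 to 24902197), Cd79b on chromosome 11 (106311341 to 106314529), Ms4a1 on chromosome 19 (11250603 to 11266151), Pax5 on chromosome 4 (44531506 to 44710440) and Ebf1 on chromosome 11 (44618134 to 45005172). These are positions in the deposited tables, in GRCm38. Each is a protein-coding gene in GENCODE M21 and has 1 row in each table. The 250 bases before the start of Cd79a, Ebf1 and Pax5 (GRCm38, RefSeq) are printed because the products of the last 2 act on the promoter of the first. Capitals mark matches, on either strand, to 4 motifs bound by B cell factors: CCCNNGGG (centre of the EBF site), ATTTGCAT (octamer), CAGGTG (E-box of E proteins) and AGGAAGT (Ets). The motifs were chosen after the sequences were seen, and none overlaps another here.
Cd79a, plus strand, chr7:24897247-24897496: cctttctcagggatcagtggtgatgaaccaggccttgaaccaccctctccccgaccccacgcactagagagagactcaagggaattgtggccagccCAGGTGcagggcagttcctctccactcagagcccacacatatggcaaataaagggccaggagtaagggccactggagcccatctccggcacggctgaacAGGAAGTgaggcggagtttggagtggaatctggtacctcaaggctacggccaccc
Ebf1, plus strand, the upstream one of 2 starts, chr11:44617850-44618099: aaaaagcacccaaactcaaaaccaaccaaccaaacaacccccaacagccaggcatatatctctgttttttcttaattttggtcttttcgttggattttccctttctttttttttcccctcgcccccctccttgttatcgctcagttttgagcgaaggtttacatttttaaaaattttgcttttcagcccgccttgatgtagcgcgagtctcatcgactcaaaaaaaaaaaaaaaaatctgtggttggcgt
Pax5, minus strand, chr4:44710695-44710944: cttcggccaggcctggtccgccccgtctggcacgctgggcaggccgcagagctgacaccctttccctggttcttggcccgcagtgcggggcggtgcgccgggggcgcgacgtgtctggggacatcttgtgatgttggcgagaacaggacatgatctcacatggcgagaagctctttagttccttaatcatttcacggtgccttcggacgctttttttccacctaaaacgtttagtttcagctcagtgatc
The Cd79a window holds an E-box whose first base lies 154 bases before the start and an Ets match that begins 55 bases before it. The Ebf1 and Pax5 windows hold none of the 4. Among 32851 promoter windows of the same length, 17.2% hold the E-box letters, 11.8% the EBF letters, 7.69% the Ets letters and 1.60% the octamer. A match is a description of these letters and not a measured binding site. No PAX5 motif was searched, and sites that depart from the exact letters were not marked. A window without capitals for a factor can therefore still hold a site for it.

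Values are TPM, a measure of transcript abundance scaled for gene length that sums to 1000000 in each library. The depth in reads is unknown, since the tables hold no counts. Mean read coverage at 1 FPKM was 4.81 in YFP+ M and 2.60 in YFP+ FM, against 9.19 in YFP- M and 2.59 in YFP- FM. The YFP+ FM library stood apart, with 7386 genes at 1 TPM or more against 10302 to 12829 in the other 3, and with 66.1% of its TPM in 100 genes. All tested genes together had a median log2 fold change of -1.73 (YFP+ over YFP-). Kupffer cell markers summed to 36478 and 32135 TPM in YFP+ M and FM, against 10310 and 21480 TPM in YFP- M and FM. Microglia markers summed to 1006 and 74.7 TPM in the YFP+ libraries, against 17388 and 16077 TPM in the YFP- libraries. All 9 were called lower, against 39.5% of all tested genes. Under quantile normalization, median-ratio scaling and cyclic loess 9, 8 and 2 of the 9 were called lower.

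B cell transcripts were present in every library, and most of their level came from the receptor pair. The 6 genes together reached 480 TPM in YFP+ M and 77.4 TPM in YFP+ FM, against 515 TPM in YFP- M and 499 TPM in YFP- FM. Cd79a and Cd79b made up 91.6% and 87.8% of this sum in YFP+ M and FM, against 84.9% and 77.5% in YFP- M and FM. The sum was thus low in 1 library, YFP+ FM, and similar in the other 3. Of the 5 genes tested, 2 were called lower in YFP+ libraries, Ms4a1 and Ebf1, and 0 higher (limma on log2(TPM + 1), Benjamini-Hochberg adjusted over 12251 genes, threshold 0.05). Among all tested genes 39.5% were called lower and 0.522% higher, so 2 of 5 is close to that share. The median log2 fold change of the 5 genes was -1.34 on deposited TPM, -0.29 under quantile normalization, 0.94 under median-ratio scaling and -0.56 under cyclic loess. Under quantile normalization, where 1.67% of genes were called lower and 1.21% higher, 0 of the 5 were called in either direction. Likewise 0 were called under median-ratio scaling (5.9% of genes lower, 5.62% higher) and cyclic loess (0.327% lower, 0.531% higher). In bulk RNA, fewer B cells in a library and less of these transcripts per cell cannot be told apart.

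**Figure D1:**
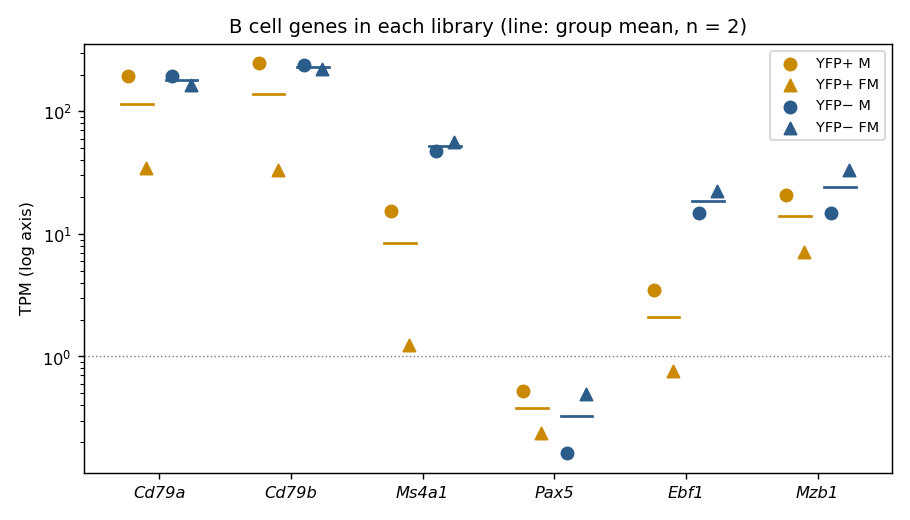
TPM (log axis) of each B cell gene in the 4 libraries, YFP+ left of YFP-, circles for titles starting with M and triangles for FM, with short lines at the group means (n = 2). Cd79a and Cd79b sit between 165 and 246 TPM in 3 libraries and at 34.8 and 33.2 TPM in YFP+ FM. Both YFP+ libraries lie below both YFP- libraries for Ms4a1 and Ebf1, as for 79.7% of all tested genes. The dotted line is the 1 TPM limit, which Pax5 does not reach.

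For the receptor pair no difference was called. Cd79a had 193 TPM in YFP+ M and 34.8 TPM in YFP+ FM, against 196 TPM in YFP- M and 165 TPM in YFP- FM. Cd79b had 246 TPM in YFP+ M and 33.2 TPM in YFP+ FM, against 241 TPM in YFP- M and 222 TPM in YFP- FM. For both genes the M libraries were almost equal, YFP+ FM was far lower than the rest, and the groups overlapped for Cd79b and, through YFP+ M at 193 TPM, for Cd79a. The log2 fold change of Cd79a was -1.12 (SE 0.93, 95% interval -2.94 to 0.71, limma adjusted p = 0.299). That of Cd79b was -1.34 (SE 0.91, 95% interval -3.13 to 0.45, limma adjusted p = 0.207). Without YFP+ FM the values were 0.10 and 0.089, where the median of all tested genes was -1.24. Without YFP+ M they were -2.34 for Cd79a and -2.77 for Cd79b, where that median was -2.27. With a lone YFP+ library left, no call is read from these fits.

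Within a library the 2 subunits kept close to each other. For each 100 TPM of Cd79a there were 127 TPM of Cd79b in YFP+ M and 95.3 TPM in YFP+ FM, against 123 TPM in YFP- M and 134 TPM in YFP- FM. The level of Cd79b exceeded that of Cd79a in 3 libraries, YFP+ FM being the exception. Over the 4 libraries the centred log2(TPM + 1) profile of Cd79a was the 2nd nearest of 12250 to that of Cd79b, at a Euclidean distance of 0.38. The median distance of all genes to Cd79b was 1.78. From the side of Cd79a, Cd79b ranked 19th. Both genes were among the more abundant: Cd79a stood at rank 542 in YFP+ M and 1215 in YFP+ FM, against 658 in YFP- M and 1015 in YFP- FM. For Cd79b the ranks were 461 and 1252 in YFP+ M and FM, against 548 and 728 in YFP- M and FM.

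Ms4a1, which encodes CD20, was lower in YFP+ libraries. It had 15.5 TPM in YFP+ M and 1.25 TPM in YFP+ FM, against 47.7 TPM in YFP- M and 55.8 TPM in YFP- FM. The groups did not overlap, and the 2 YFP- libraries lay close together while the YFP+ libraries were far apart. Its mean was 8.38 ± 10.1 TPM in YFP+ and 51.8 ± 5.72 TPM in YFP- libraries (SD, n = 2 each), with a log2 fold change of -3.11 (SE 1.12, limma adjusted p = 0.0209). Both YFP+ libraries also lay below both YFP- libraries for 79.7% of all tested genes, so that order alone does not set Ms4a1 apart. The reverse order held for 2.5% of tested genes and for 0 of the 6 B cell genes. The gene lies within 4930526L06Rik on the other strand, which was listed at 0 in all 4 libraries.

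The Ms4a1 call ended under the 3 scalings between libraries and without a filter (limma adjusted p = 0.235). Without a filter 168 of 23337 genes were called lower. With a library left out, the log2 fold change was -4.55 without YFP+ M and -1.67 without YFP+ FM. It was -3.22 without YFP- M and -3.00 without YFP- FM. A lone library in a group shows no spread, so no call is read from these fits. The log2 fold change was -1.23 under quantile normalization, -1.14 under median-ratio scaling and -1.10 under cyclic loess, with limma adjusted p of 0.277, 0.198 and 0.325. With the title start as a replicate block Ms4a1 was not called either (limma adjusted p = 0.143), and 1726 of 12251 genes were called lower.

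Set against Cd79a in the same library, a measure that no single scale factor of a library can change, Ms4a1 was again lower in both YFP+ libraries. For each 100 TPM of Cd79a there were 8.02 TPM of Ms4a1 in YFP+ M and 3.59 TPM in YFP+ FM, against 24.3 TPM in YFP- M and 33.8 TPM in YFP- FM. The YFP+ ratio was 0.329 of the YFP- ratio in the M pair and 0.106 in the FM pair. Among the other tested genes, 56.9% also had both YFP+ ratios to Cd79a below both YFP- ratios, and 4.4% had both above. With 2 libraries in each group the smallest exact permutation p is 0.33, so the ratios are given as values.

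**Figure D2:**
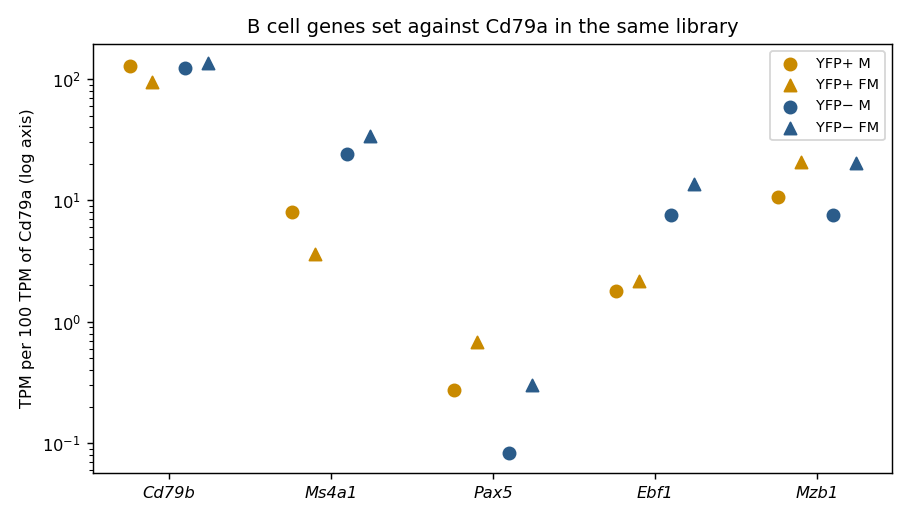
TPM of 5 B cell genes for each 100 TPM of Cd79a in the same library (log axis), YFP+ left of YFP-, circles for M and triangles for FM titles, 1 point per library. The Cd79b ratio spans 95.3 to 134 over the 4 libraries. The Ms4a1 and Ebf1 ratios of both YFP+ libraries lie below those of both YFP- libraries, as for 56.9% of tested genes other than Cd79a.

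Ebf1, the early B cell transcription factor, was also lower in YFP+ libraries. It had 3.46 TPM in YFP+ M and 0.755 TPM in YFP+ FM, against 14.8 TPM in YFP- M and 22.6 TPM in YFP- FM. The groups did not overlap, and YFP+ FM was below the 1 TPM used as a limit. Both YFP+ libraries also lay below both YFP- libraries for 79.7% of all tested genes. Its mean was 2.11 ± 1.91 TPM in YFP+ and 18.7 ± 5.53 TPM in YFP- libraries (SD, n = 2 each), with a log2 fold change of -2.79 (SE 1.09, limma adjusted p = 0.0328). For each 100 TPM of Cd79a there were 1.79 TPM of Ebf1 in YFP+ M and 2.17 TPM in YFP+ FM, against 7.55 TPM in YFP- M and 13.7 TPM in YFP- FM. The ratio in YFP+ was 0.237 of that in YFP- for the M pair and 0.158 for the FM pair. Both YFP+ ratios lay below both YFP- ratios, as they did for 56.9% of the other tested genes.

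The Ebf1 call was lost in the same settings as that of Ms4a1 and also with a pseudocount of 0.1 TPM (limma adjusted p = 0.0602). Its log2 fold change was -0.73 under quantile normalization, -1.0 under median-ratio scaling and -0.56 under cyclic loess, with adjusted p of 0.341, 0.191 and 0.429. Without YFP+ FM it was -2.12 (adjusted p = 0.136). Markers of mural and stromal cells, which can also hold Ebf1, were lower on deposited TPM as well. Of 7 tested mural and stromal markers 6 were called lower, against 39.5% of all genes, among them the smooth muscle actin Acta2 (log2 fold change -4.66). But 4 of the 6, Rgs5, Pdgfrb, Notch3 and Des, had under 1 TPM in both YFP+ libraries and passed the filter only through the YFP- libraries, so nothing is read from this count. Of all 1900 genes that passed in that way, 1813 were called lower. Under quantile normalization, median-ratio scaling and cyclic loess 1, 2 and 1 of the 7 were called lower. The 8 listed markers summed to 17.7 and 17.4 TPM in YFP+ M and FM, against 121 and 185 TPM in YFP- M and FM. Rgs5 and Abcc9 were listed at 0 in YFP+ FM. The part of these cells in the Ebf1 difference was not tested.

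Pax5, the factor that maintains B cell identity, was near the bottom of the measured range. It had 0.527 TPM in YFP+ M and 0.236 TPM in YFP+ FM, against 0.162 TPM in YFP- M and 0.495 TPM in YFP- FM. The groups overlapped, and no library reached 1 TPM, so the gene did not enter the main test. Mean read coverage of the gene was 1.71 and 0.497 in YFP+ M and FM, against 0.880 and 0.555 in YFP- M and FM. In the fit of all names without a filter its log2 fold change was 0.060 (SE 0.19), and a difference was not detectable at this depth. For each 100 TPM of Cd79a there was 0.272 TPM of Pax5 in YFP+ M and 0.678 TPM in YFP+ FM, against 0.0825 TPM in YFP- M and 0.299 TPM in YFP- FM.

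Mzb1 (chromosome 18, 35647265 to 35649367), the endoplasmic reticulum helper of immunoglobulin assembly, gave no call. It had 20.7 TPM in YFP+ M and 7.17 TPM in YFP+ FM, against 14.9 TPM in YFP- M and 33.3 TPM in YFP- FM. The groups overlapped, with YFP+ M above YFP- M and YFP+ FM below YFP- FM. The log2 fold change was -0.81 (SE 1.12, 95% interval -3.00 to 1.38, limma adjusted p = 0.530), which lies 0.92 above the median of all tested genes. The sign turned under every scaling, to 1.12 under quantile normalization, 1.34 under median-ratio scaling and 1.20 under cyclic loess, with adjusted p of 0.247, 0.103 and 0.202.

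Against Cd79a, the Mzb1 values of the groups overlapped. For each 100 TPM of Cd79a there were 10.7 TPM of Mzb1 in YFP+ M and 20.6 TPM in YFP+ FM, against 7.59 TPM in YFP- M and 20.2 TPM in YFP- FM, so the ratio differed more between title starts than between YFP groups. Among markers of plasmacytoid dendritic cells, which also hold Mzb1, 4 of 8 were called lower and 0 higher, near the 39.5% of all genes. Of the 4, Runx2 passed the filter only through the YFP- libraries. Under quantile normalization, median-ratio scaling and cyclic loess 1, 1 and 0 of the 8 were called lower. They summed to 282 and 117 TPM in YFP+ M and FM, against 1213 and 868 TPM in YFP- M and FM, and Klk1 was listed at 0 in YFP- FM. The lectin Siglech, which microglia also express, made up most of the YFP- sums, at 753 TPM in YFP- M and 659 TPM in YFP- FM. The surface protein Bst2, found on many cell types, went the other way, at 138 and 94.9 TPM in YFP+ M and FM, against 54.2 and 67.8 TPM in YFP- M and FM, and was not called (limma adjusted p = 0.416). The part of these cells in the Mzb1 values was not tested.

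**Figure D3:**
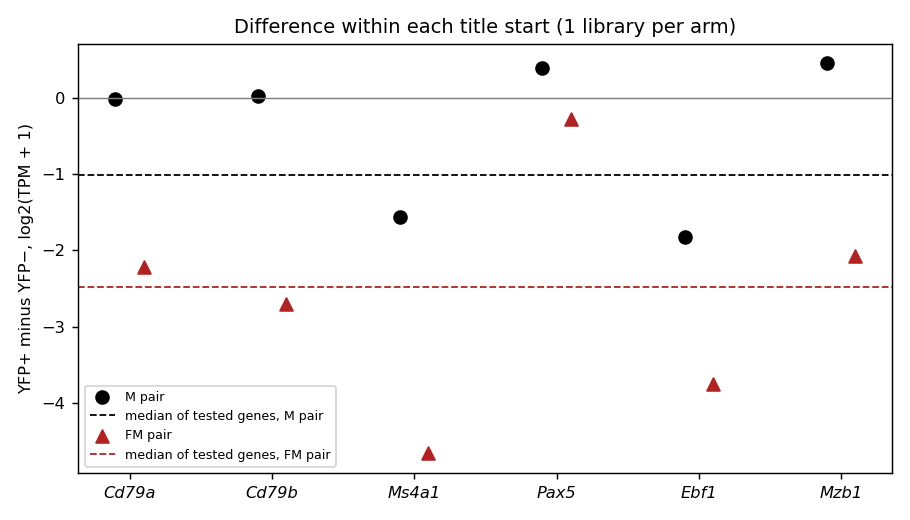
Difference YFP+ minus YFP- in log2(TPM + 1) for each B cell gene, black circles for the M pair and red triangles for the FM pair (1 library per arm), with dashed lines at the medians of all tested genes. In the M pair Cd79a and Cd79b lie at -0.019 and 0.028 while Ms4a1 and Ebf1 lie at -1.56 and -1.82, and every gene is lower in the FM pair than in the M pair.

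The 2 title starts gave different sizes for every gene. In the M pair the difference on the log2(TPM + 1) scale was -0.019 for Cd79a, 0.028 for Cd79b, 0.39 for Pax5 and 0.45 for Mzb1, against -1.56 for Ms4a1 and -1.82 for Ebf1. In the FM pair it was -2.22 for Cd79a, -2.71 for Cd79b, -0.27 for Pax5, -2.07 for Mzb1, -4.66 for Ms4a1 and -3.75 for Ebf1. The median of all tested genes was -1.01 in the M and -2.48 in the FM pair. Ms4a1 and Ebf1 lay below that median in both pairs, Cd79a and Mzb1 above it in both, and Cd79b above it in the M and below it in the FM pair. With 1 library in each arm these differences have no test.

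Mzb1 and Ms4a1 changed places between the groups in the order of the 6 levels. In both YFP- libraries the order was Cd79b, Cd79a, Ms4a1, Mzb1, Ebf1 and Pax5. Mean levels there were 232 ± 13.8, 181 ± 21.7, 51.8 ± 5.72, 24.1 ± 13.1, 18.7 ± 5.53 and 0.328 ± 0.235 TPM (SD, n = 2). The ranges of Mzb1 and Ebf1 overlapped, and those of the other neighbours did not. In both YFP+ libraries Mzb1 stood above Ms4a1, and in YFP+ FM Cd79a also stood above Cd79b. Mean levels there were 140 ± 151 TPM for Cd79b, 114 ± 112 TPM for Cd79a, 13.9 ± 9.55 TPM for Mzb1, 8.38 ± 10.1 TPM for Ms4a1, 2.11 ± 1.91 TPM for Ebf1 and 0.382 ± 0.206 TPM for Pax5 (SD, n = 2). With a spread of that size the neighbours Cd79b and Cd79a, Mzb1 and Ms4a1, and Ms4a1 and Ebf1 overlapped.

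**Figure D4:**
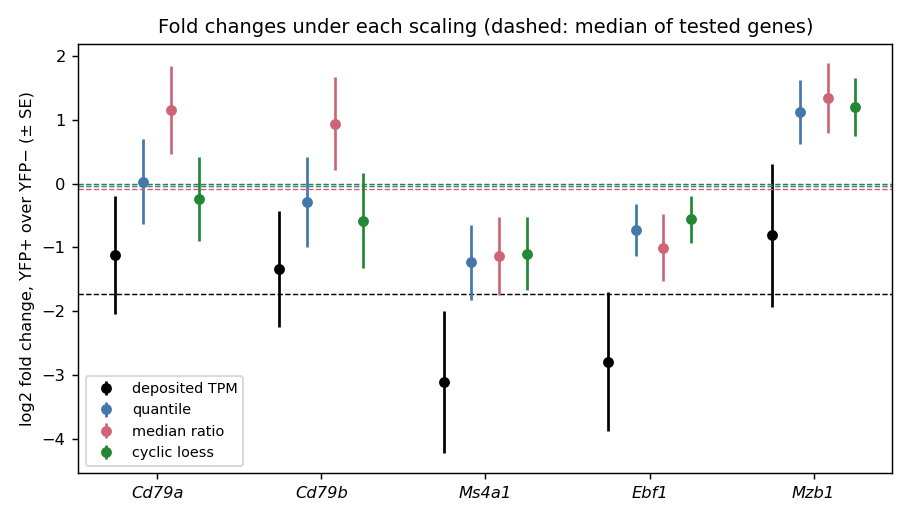
Log2 fold change (YFP+ over YFP-) of the 5 tested B cell genes with its limma standard error, for deposited TPM and 3 scalings between libraries, with dashed lines at the median of all tested genes in each. Ms4a1 and Ebf1 lie below 0 and below the median in all 4, Mzb1 lies above 0 in the 3 scalings, and Cd79a lies between -1.12 and 1.16.

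Among surface and co-receptor genes of B cells, 4 of 9 were called lower and 0 higher, near the 39.5% of all genes. Among those called were the complement receptor Cr2 (-1.54), the tetraspanin Cd37 (-2.15) and Cd24a (-2.40), given as log2 fold changes. Cd37 had the highest mean of this list over the 4 libraries, though Cd72 was above it in both YFP+ libraries. Cd37 stood at 190 TPM in YFP+ M and 69.6 TPM in YFP+ FM, against 564 TPM in YFP- M and 470 TPM in YFP- FM. Both YFP+ libraries lay below both YFP- libraries for Cd37, as for 79.7% of all tested genes, and its limma adjusted p was 0.0370. Of these 9 genes, 6 had both YFP+ ratios to Cd79a below both YFP- ratios and 1 above. Among all other tested genes these shares were 56.9% and 4.4%, so the count does not set the list apart. The gene above was Cd72, an inhibitory co-receptor named after its values were seen, at 191 and 106 TPM in YFP+ M and FM, against 48.1 and 72.8 TPM in YFP- M and FM (log2 fold change 1.25, limma adjusted p = 0.260).

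Of 10 genes that signal below the B cell receptor, 1 was called lower and 0 higher, against 39.5% lower among all genes. It was Blnk, the adaptor that links the kinase SYK to phospholipase, at 22.1 TPM in YFP+ M and 2.64 TPM in YFP+ FM, against 219 TPM in YFP- M and 138 TPM in YFP- FM (log2 fold change -4.26, limma adjusted p = 0.000842). Under quantile normalization, median-ratio scaling and cyclic loess 0, 1 and 0 of the 10 were called lower. The most abundant member was Cd81, a tetraspanin found on many cell types, at -1.48 on deposited TPM (limma adjusted p = 0.0857). Of 13 transcription factors used by B cells, 6 were called lower and 0 higher, near the 39.5% of all genes. They were Bach2 (-2.78), Foxo1 (-2.78), Ikzf1 (-3.18), Ikzf3 (-2.49), Bcl6 (-1.46) and Irf4 (-2.73), as log2 fold changes. Bcl6 passed the filter only through the YFP- libraries. Under each of the 3 scalings 0 of the 13 were called lower, and under median-ratio scaling 2 were called higher. The highest mean over the 4 libraries was that of Spi1, although Irf8 was above it in both YFP- libraries. Spi1, which encodes the myeloid and B cell factor PU.1, had 578 and 834 TPM in YFP+ M and FM, against 280 and 484 TPM in YFP- M and FM, and was not called (log2 fold change 0.91, limma adjusted p = 0.320).

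Of 8 homing and survival receptors, 5 were called lower and 0 higher, against 39.5% lower among all genes. Under quantile normalization, median-ratio scaling and cyclic loess 1, 3 and 0 of the 8 were called lower. Ccr6, a chemokine receptor, had 5.52 TPM in YFP+ M and 1.01 TPM in YFP+ FM, against 96.0 TPM in YFP- M and 90.0 TPM in YFP- FM (log2 fold change -4.70, limma adjusted p = 0.000597). The rest were the interleukin 7 receptor Il7r (-3.81), Tnfrsf13b, which encodes the BAFF and APRIL receptor TACI (-3.72), the chemokine receptors Cxcr4 (-3.34) and Ccr7 (-2.54), as log2 fold changes. Ccr7 had the highest mean over the 4 libraries, and Ccr6 was above it in YFP- M. Several of these receptors are also used by T cells, whose markers were given the same test. Of 6 T cell markers 3 were called lower, near the 39.5% of all genes, and 0 under each of the 3 scalings. They summed to 121 and 39.0 TPM in YFP+ M and FM, against 474 and 296 TPM in YFP- M and FM, with none listed at 0. The part of T cells was not tested.

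Of 8 plasma cell genes 2 were called lower and 0 higher, below the 39.5% of all genes, the B cell maturation antigen Tnfrsf17 (-3.71) and Edem1 (-3.07), which sends misfolded glycoproteins for degradation. Tnfrsf17 had 2.33 TPM in YFP+ M and was listed at 0 in YFP+ FM, against 25.1 TPM in YFP- M and 20.9 TPM in YFP- FM. The most abundant was Xbp1, the secretory transcription factor, at -1.96 (limma adjusted p = 0.0698). Of 4 tested early B cell genes 1 was called lower, the terminal transferase Dntt (-1.77), at 1.31 TPM in YFP+ M and listed at 0 in YFP+ FM, against 3.20 and 5.38 TPM in YFP- M and FM. The most abundant early gene, Vpreb3, was at -2.0 (limma adjusted p = 0.122). The recombinase genes Rag1 and Rag2 and the surrogate light chain gene Vpreb2 stayed below 1 TPM in every library. The immunoglobulin and T cell receptor constant genes looked for were not found by symbol, so they were not analysed here.

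The medians of these lists lay on both sides of the -1.73 of all tested genes. They were -1.95 for surface genes, -1.32 for receptor signalling, -1.52 for transcription factors, -2.94 for homing and survival receptors, -1.22 for early genes and -1.71 for plasma cell genes. Under quantile normalization these 6 lists together held 1 lower call, in the homing receptors, and 1 higher call, in the surface genes. Several of the listed genes are also expressed by macrophages and microglia, and the part of those cells in these counts was not tested.

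**Figure D5:**
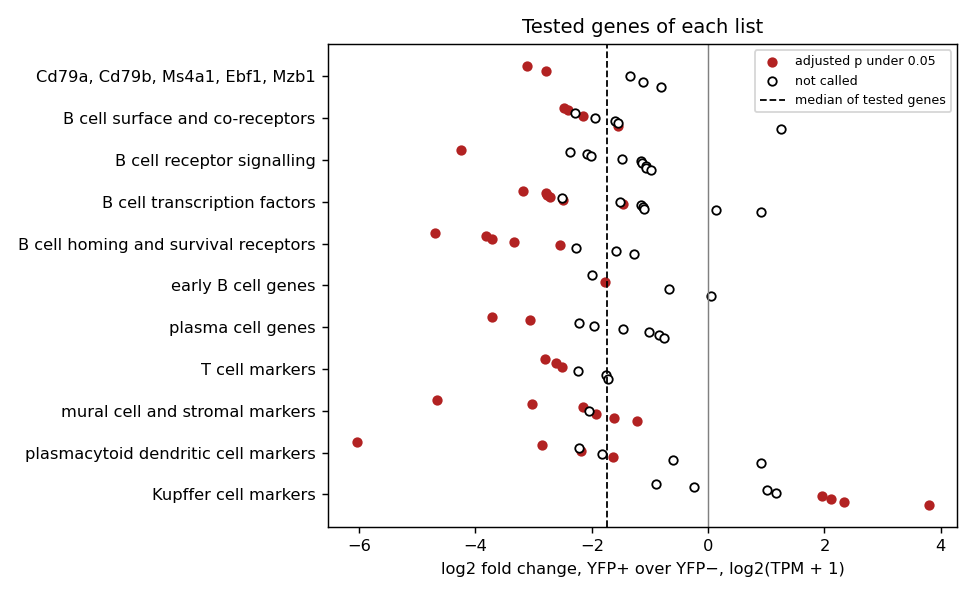
Log2 fold changes (YFP+ over YFP-) of the tested genes of each list, red where the limma adjusted p was under 0.05, with the dashed line at the median of all tested genes (-1.73). The B cell lists spread around that line, and Kupffer cell markers lie to the right of it.

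The genes whose centred profile over the 4 libraries lay nearest to each B cell gene came from many functions, and the distances describe these libraries only. For Cd79a they included Swi5 (0.21) and Rfc3 (0.27), as Euclidean distances in log2(TPM + 1). Nearest to Cd79b were Tsc22d3 (0.31), Cd79a (0.38) and the proteasome subunit Psmc1 (0.38). For Ms4a1 they were the cathepsin Ctso (0.25), Timp2 (0.27) and Cluap1 (0.30), and for Ebf1 Rnf180 (0.030), Orc2 (0.036) and Exoc6b (0.055). Mzb1 was nearest to the basophil protease Mcpt8 (0.026), Ndst1 (0.086) and the kinase gene Pdxk (0.10). Mcpt8 was near the floor, at 1.61 and 0 TPM in YFP+ M and FM, against 0.897 and 3.16 TPM in YFP- M and FM. The distance between Ms4a1 and Ebf1 was 1.16 and that between Ms4a1 and Mzb1 2.60.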

How the data were processed

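There is 1 table per library. The authors deposited TPM, FPKM and mean read coverage per gene, per the file headers. The submitters' processing notes name HISAT (no version) and, as builds, GRCm38 and mm10. No source used here gives the counting program, the library kit or its strandedness. Since the deposited TPM values sum to 1000000 in each library, a gene can move because others did.

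Rows of one name were summed (166 of 23337 names). The 12251 genes reaching 1 TPM in 2 or more libraries were tested with limma 3.58.1 (R 4.3.3) on log2(TPM + 1), with a mean trend and the YFP group as the sole term, with Benjamini-Hochberg adjustment and a threshold of 0.05. limma gave the variance trend infinite prior weight, so p-values rest on the trend over all genes. Filtering removed Pax5. Ebf1 passed with 1 YFP+ library over the limit, and the other 4 B cell genes with both.

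Groups come from the genotype labels. Members, lists and tests were chosen with earlier results of these data known. Named genes are the members, every called gene of the B cell lists, the gene of highest mean TPM of each list, at most 2 genes of each other list, and the 3 nearest profiles per member; some genes this rule takes are not reported here. List genes were matched by symbol, 5 of them by an older symbol in RefSeq (GRCm38). Alternatives were a pseudocount of 0.1, other filters, 3 scalings, FPKM, variance models, a title start block and each library left out. Other steps used Python 3.11.15, pandas 2.3.3 and NumPy 2.4.6.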

Additional observations from a re-analysis of the deposited data

Results flagged for a closer look

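In 3 B cell genes the YFP difference had opposite signs in the M and the FM libraries, and the difference between the title starts was not tested. On the log2(TPM + 1) scale, YFP+ minus YFP-, Cd79b was at 0.028 in the M pair and -2.71 in the FM pair. Mzb1 was at 0.45 in the M pair and -2.07 in the FM pair. Pax5 was at 0.39 in the M pair and -0.27 in the FM pair, with every library under 1 TPM. The median of all tested genes was -1.01 in the M and -2.48 in the FM pair.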

How the results depend on the processing

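Of the B cell genes, 2 were called lower in the main analysis, 1 with a pseudocount of 0.1 TPM (Ms4a1), and 0 without a filter, under quantile normalization, median-ratio scaling or cyclic loess, or with the title start as a replicate block. With a library left out the number was 0 to 4. None was called higher in any of these settings. The number of all genes called lower was 4834. It was 3078 with the smaller pseudocount, 168 without a filter, 2902 with a filter at 5 TPM, 205 under quantile normalization, 723 under median-ratio scaling, 40 under cyclic loess, 1726 with the replicate block, and 24 to 8280 with a library left out. Genes called higher numbered 64, against 1 without a filter, 148 under quantile normalization, 689 under median-ratio scaling, 115 with FPKM, 23 with the replicate block and 12 to 71 with a library left out. Deviations from the group means were unrelated between libraries with the same title start (correlation -0.011 over genes), and the labels give no pairing.

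Signs turned for Cd79a under quantile normalization (0.032), median-ratio scaling (1.16) and without YFP+ FM (0.10), for Cd79b under median-ratio scaling (0.94) and without YFP+ FM (0.089), and for Mzb1 under the 3 scalings (1.12, 1.34 and 1.20). The cause was not tested. Without YFP+ M, Cd79a was at -2.34 and Cd79b at -2.77, where the median of all tested genes was -2.27. The log2 fold changes of Ms4a1 and Ebf1 were negative in all settings run.

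The ratios to Cd79a, as log2 differences YFP+ minus YFP-, were -2.42 for Ms4a1, -2.37 for Ebf1, -0.22 for Cd79b, 0.26 for Mzb1 and 1.45 for Pax5. Set against Cd79b, chosen after seeing the data, they were -2.19 for Ms4a1, -2.14 for Ebf1, 0.48 for Mzb1 and 1.68 for Pax5. With a library left out they spanned -3.00 to -1.84 for Ms4a1, -2.80 to -1.94 for Ebf1, -0.43 to -0.015 for Cd79b, -0.44 to 0.97 for Mzb1 and 0.52 to 2.38 for Pax5; the negative Mzb1 values came without YFP- M (-0.44) and without YFP+ FM (-0.21). Depth in reads is unknown and limits Pax5 most.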
